A study of Mus musculus with 2 samples.

Results

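The signals of 10 genes of the WNT pathway, namely Apcdd1, Notum, Cxxc5, Wnt5a, Wnt7a, Wnt7b, Lgr4, Lgr6, Axin2 and Tcf7, were compared between 4T1 parental cells and 4T1-3R liver metastatic cells. The members were taken as every probe set annotated with exactly 1 of these symbols, and they were chosen with their values on these arrays already known, so their differences are descriptions and were not tested. Probe sets were found for 9 of the 10 genes, 24 probe sets of the 34945 that carry a single gene symbol. Tcf7 had no probe set carrying its symbol alone and has no value. A probe set that is unnamed or carries several symbols could still measure it. The 4T1 line is a mouse mammary carcinoma line from a BALB/c tumour that metastasises after transplantation, and the 4T1-3R liver metastatic population was isolated in vivo from liver metastases. Both populations carried the label of mammary carcinoma and were kept in culture, and total RNA of each was hybridised to 1 Affymetrix array. No treatment, genetic change or animal number is given beyond this, nor how many metastases or clones the metastatic cells came from. No spread between replicates can be had from single arrays, no p-value can be given, and every value describes these 2 arrays.

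WNT proteins are secreted lipid-modified ligands that bind Frizzled receptors together with the LRP5 and LRP6 co-receptors. In the canonical branch this stops the destruction complex of Axin, APC and GSK3 from degrading beta-catenin, which then works with TCF and LEF factors on target genes, Axin2 among them. The ubiquitin ligases RNF43 and ZNRF3 remove Frizzled receptors from the cell surface, and R-spondins bound to LGR4, LGR5 or LGR6 block these ligases. APCDD1 is a membrane protein that inhibits WNT signalling at the cell surface, NOTUM is a secreted enzyme that strips the lipid from WNT proteins, and CXXC5 binds Dishevelled and also DNA. In the mammary gland WNT signals act on stem and progenitor cells of the epithelium.

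Upstream sequence from RefSeq (GRCm38.p6) was used for 5 of the 10 genes. Apcdd1 and Cxxc5 lie on a chromosome whose sequence was left out here, so their lack of a window is not a matter of availability alone. Notum, Wnt5a and Wnt7b had no window either. The 250 bases before the start are shown for Wnt7a and Lgr6. Among the 5 genes used, these were the ones at least 2-fold apart, in opposite directions. CG dinucleotides are in capitals. The Wnt7a sequence is chr6:91411354-91411603 on the minus strand and the Lgr6 sequence is chr1:135105277-135105526 on the minus strand, both written 5′ to 3′ along the gene.
Wnt7a: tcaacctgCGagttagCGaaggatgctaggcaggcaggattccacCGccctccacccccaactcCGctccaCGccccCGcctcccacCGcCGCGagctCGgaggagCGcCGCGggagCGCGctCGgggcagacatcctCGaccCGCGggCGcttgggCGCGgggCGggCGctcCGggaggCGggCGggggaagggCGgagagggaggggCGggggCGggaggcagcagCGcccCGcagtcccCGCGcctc
Lgr6: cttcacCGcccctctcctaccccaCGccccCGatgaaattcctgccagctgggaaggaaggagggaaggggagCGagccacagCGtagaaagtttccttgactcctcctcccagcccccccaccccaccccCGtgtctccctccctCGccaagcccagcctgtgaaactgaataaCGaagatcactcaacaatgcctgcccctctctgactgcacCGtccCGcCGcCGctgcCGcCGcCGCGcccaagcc
The Wnt7a window held 34 CG dinucleotides and the Lgr6 window 16, against a median of 6 over the 32851 windows of the same length in the table. As many CG dinucleotides as in Wnt7a were found in 3.53% of all windows, and as many as in Lgr6 in 25.4%. The windows of Axin2 and Lgr4 held 24 and 10. The motif CTTTGA, a core sequence bound by TCF and LEF factors, was searched on both strands. It was present in 0 of the 6 member windows (Tcf7 has 2) and in 13.8% of all windows. This says only that these letters are not in these windows, and Apcdd1 and Cxxc5 were not among the members searched.

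Signals are MAS5 intensities on a linear scale. A floor of 90.6, the median of all signals of both arrays, stood in for the background, since no detection calls were at hand, and a probe set counted as measured where it reached the floor on at least 1 array. Of the 24 member probe sets, 15 were measured, covering 7 genes, and 9 lay under the floor on both arrays. Of the 15, 9 were at least 2-fold higher in the metastatic cells, 1 was at least 2-fold lower and 5 were under 2-fold. Among all 20463 measured single-gene probe sets, 5.68% were higher and 4.74% lower by at least 2-fold. Since the members were picked from this same contrast, nothing is read from that excess. The median log2 ratio of metastatic over parental signal was 1.10 over the 15 and -0.02 over all measured single-gene probe sets. Counted by gene, with each gene represented by its probe set of highest mean signal, Apcdd1, Cxxc5, Notum and Lgr6 were at least 2-fold higher, Wnt7a was at least 2-fold lower, and Wnt7b and Lgr4 lay between; these calls were the same under each of the 4 other scalings. Over all 11135 measured genes the shares were 6.22% and 4.48%. In bulk RNA a difference in the share of cells that express a gene and a difference in RNA per cell cannot be told apart.

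**Figure D1:**
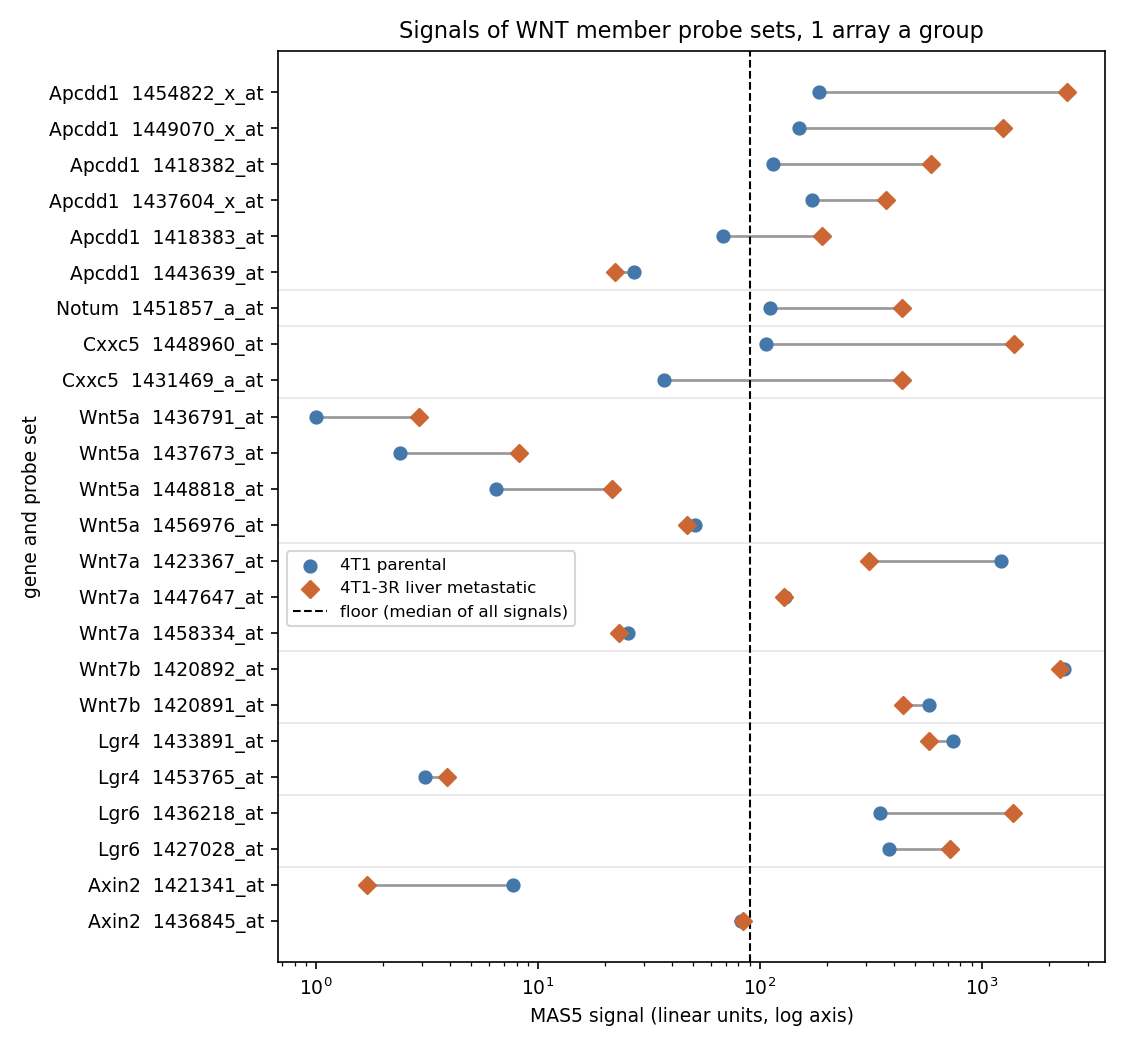
MAS5 signals of the 24 member probe sets (horizontal log axis, linear signal units) on the parental array (circles) and the liver metastatic array (diamonds), with a dashed line at the floor of 90.6. The metastatic signal lies to the right of the parental signal in the 5 measured Apcdd1 probe sets, both Cxxc5 probe sets, Notum and both Lgr6 probe sets; of the other measured probe sets, Wnt7a 1423367_at is the one at least 2-fold to the left.

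Across the arrays as a whole, both columns had a trimmed mean of 500.003 and medians of 87.4 (parental) and 93.3 (metastatic). The 18 hybridisation control probe sets, labelled bacterial and phage RNAs added to the mix, had a median of 2359 on the parental and 3507 on the metastatic array. Scaling the arrays to these controls moved the median log2 ratio of all measured genes from -0.01 to -0.54, so differences are read relative to the median gene. The ratio of 3′ to 5′ control probe sets, a measure of RNA integrity and labelling, was 1.22 and 1.59 for Actb and 0.789 and 1.02 for Gapdh in parental and metastatic cells. Its part in the results was not tested. The 12 carcinoma epithelium markers had summed signals of 98273 in parental and 65645 in metastatic cells, and 11 were measured. Beside 4.48% lower and 6.22% higher over all measured genes, 5 of the 11 were at least 2-fold lower in the metastatic cells and 0 higher. The lower ones were Cldn7 (5432.2 and 151.0), Krt14 (5324.3 and 170.9), Cldn4 (3338.0 and 719.4), Epcam (7535.7 and 1776.3) and Cldn3 (5316.5 and 2201.1), while the keratins Krt8 (18784.3 and 21890.6) and Krt18 (23738.3 and 20614.0) were strong on both arrays. None of the 8 hepatocyte and 7 endothelial markers with a probe set reached the floor on either array. Of 12 fibroblast and stellate cell markers 10 lay under the floor on both arrays, with summed signals of 734.1 and 588.5, and Acta2 (205.3 and 158.9) and Des (106.4 and 15.9) were the others. Of 9 leukocyte markers 7 lay under the floor on both arrays, Ptprc included, while Cd68 was 388.0 and 374.0 and Csf1r was 1026.4 in parental and 88.1 in metastatic cells.

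Among the inhibitors, Apcdd1 was higher in the metastatic cells on each of its 5 measured probe sets, but by very different amounts. Probe set 1454822_x_at had a signal of 184.2 in parental and 2420.5 in metastatic cells, a 13.1-fold difference (log2 ratio 3.72). Probe set 1449070_x_at had signals of 149.9 and 1240.3, an 8.27-fold difference (log2 ratio 3.05). For 1418382_at the signals were 113.9 and 586.3, a 5.15-fold difference (log2 ratio 2.36). The metastatic signal was several times the parental signal on each of these 3 probe sets. Probe set 1437604_x_at read 172.0 and 368.9, a 2.14-fold difference. On 1418383_at the parental signal of 68.0 was under the floor and the metastatic signal was 190.0, so the difference was at least 2.10-fold. The sixth probe set, 1443639_at, read 27.0 and 22.3, under the floor on both arrays, and has no fold.

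The log2 ratios thus spanned 2.62 over the 4 Apcdd1 probe sets with no signal under the floor. Among the 794 genes with at least 4 such probe sets the median span was 0.82 and the 90th percentile 1.38. Of these genes 99.9% had a smaller span than Apcdd1. Apcdd1 was chosen with its ratios known, and genes with small ratios can hardly have wide spans. The comparison therefore does not show that its probe sets differ more than those of other genes with large ratios. Probe sets 1418382_at, 1418383_at and 1449070_x_at were designed from the same expressed sequence. Of these, 1418382_at gave 5.15-fold and 1449070_x_at 8.27-fold. The value of at least 2.10-fold on 1418383_at is a bound and is not read as a smaller ratio. The suffix _x_at marks a probe set in which some probes can match other transcripts, and 3 of the 5 measured Apcdd1 probe sets carry it, with 2.14-fold, 8.27-fold and 13.1-fold. The plain _at probe sets gave 5.15-fold and at least 2.10-fold. The direction was shared by all 5, and the size depends on the probe set read. Under other settings 1437604_x_at came under 2-fold, with a log2 ratio of 0.53 under hybridisation control scaling and 0.97 with a pseudocount of 32. The bound on 1418383_at was at least 0.78 under hybridisation control scaling, and its signals of 68.0 and 190.0 gave 1.48 when the floor was lowered to the 40th percentile, below both signals.

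Notum, which inactivates WNT proteins by removing their lipid, had 1 probe set, 1451857_a_at. Its signal was 110.9 in parental and 438.1 in metastatic cells, a 3.95-fold difference (log2 ratio 1.98). The parental signal was little above the floor: the log2 ratio was at least 1.38 once the floor was raised to the 60th percentile and was 1.41 under hybridisation control scaling. No second probe set was there to compare with it.

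Cxxc5, whose protein binds Dishevelled and restrains canonical signalling, was higher in the metastatic cells on both of its probe sets. Probe set 1448960_at read 106.1 in parental and 1393.4 in metastatic cells, a 13.1-fold difference (log2 ratio 3.72). Probe set 1431469_a_at read 36.8 and 437.6, at least 4.83-fold since the parental signal was under the floor. The first parental signal lay just above the floor and the other under it, so the sizes move with the floor: at the 60th percentile the log2 ratios were at least 3.05 and at least 1.37, and at the 40th percentile 3.72 and at least 2.96. Since the smaller ratio is a bound, the gap between the probe sets is not read as a disagreement.

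**Figure D2:**
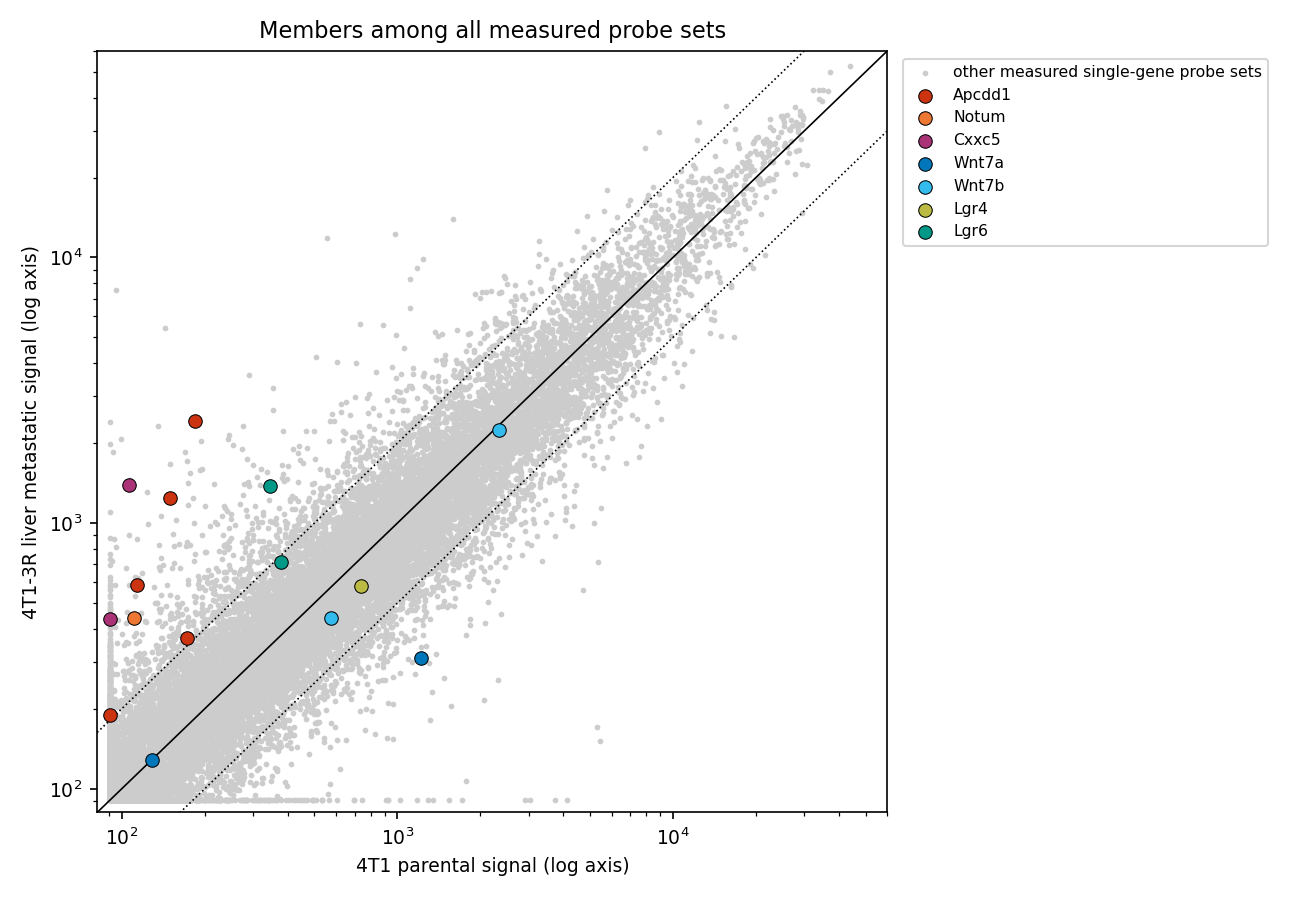
Signal on the liver metastatic array against signal on the parental array (log axes, values under the floor drawn at the floor of 90.6) for all 20463 measured single-gene probe sets in grey and the 15 measured member probe sets in colour; the solid line marks equal signal and the dotted lines 2-fold. The Apcdd1, Cxxc5 and Notum probe sets lie at parental signals of 184.2 or less and above the upper dotted line, while Wnt7b and Lgr4 lie near the solid line.

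Among the ligands, Wnt7a was lower in the metastatic cells on 1 of its probe sets. Probe set 1423367_at read 1220.7 in parental and 310.4 in metastatic cells, a 3.93-fold difference (log2 ratio -1.98), with both signals above the floor. Probe set 1447647_at read 129.3 and 127.9, a log2 ratio of -0.02. Probe set 1458334_at read 25.4 and 23.1, under the floor on both arrays. The lower level of Wnt7a therefore rests on 1 probe set, and the median log2 ratio over both measured probe sets, -0.996, was just under 2-fold. Among the 2761 genes with 2 probe sets above the floor on both arrays the median span was 0.36. Of these genes 99.8% had a smaller span than the 1.96 of Wnt7a. Wnt7a was chosen with its ratios known, and genes with small ratios can hardly have wide spans. Nothing further is read from this share.

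Wnt7b, the closest relative of Wnt7a among the ligands, was near the same level on both arrays. Probe set 1420892_at read 2339.6 in parental and 2243.5 in metastatic cells (log2 ratio -0.06), and 1420891_at read 574.3 and 440.4 (log2 ratio -0.38). With hybridisation control scaling these became -0.63 and -0.95, or -0.10 and -0.42 relative to the median gene. Wnt5a, a ligand of the beta-catenin independent branch, was under the floor on all 4 of its probe sets. Its parental signals ran from 1.0 to 50.7 and its metastatic signals from 2.9 to 46.7, so no fold is given.

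The other WNT ligands came from a list of all 19 mouse family members. Of these, 9 were measured and 10 lay under the floor on both arrays. Besides Wnt7a, only Wnt9a was at least 2-fold lower, with signals of 638.6 and 279.1 (2.29-fold) on its 1 measured probe set. No ligand was higher by as much. Over all measured genes 4.48% were lower and 6.22% higher. With hybridisation control scaling Wnt10a and Wnt6 were at least 2-fold lower too, where 20.1% of all measured genes were. Wnt10a read 868.4 and 565.7 (log2 ratio -0.62). Wnt6 was 171.0 in parental cells and 79.2, under the floor, in metastatic cells, at least 1.89-fold lower. Wnt10b was 14.8, under the floor, in parental cells and 142.8 in metastatic cells, at least 1.58-fold higher. Wls, which carries WNT proteins to the cell surface, was higher in the metastatic cells on its 3 measured probe sets without reaching 2-fold, with log2 ratios of 0.71 to 0.84 and signals of 1565.3 and 2794.9 on the probe set used. Porcn, the enzyme that adds the lipid, was 89.7 and 112.9.

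Of the Lgr receptors, Lgr6 was higher in the metastatic cells on both probe sets and Lgr4 was slightly lower. Lgr6 probe set 1436218_at read 346.5 in parental and 1380.1 in metastatic cells, a 3.98-fold difference (log2 ratio 1.99). The second, 1427028_at, read 380.1 and 716.1, a 1.88-fold difference (log2 ratio 0.91). Both Lgr6 probe sets were above the floor on both arrays, so neither ratio is a bound. Under hybridisation control scaling they were 1.42 and 0.34, or 1.96 and 0.88 relative to the median gene.

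Lgr4 probe set 1433891_at read 741.2 in parental and 579.3 in metastatic cells (log2 ratio -0.36, or -0.93 with hybridisation control scaling, which is -0.39 relative to the median gene). Its second probe set, 1453765_at, read 3.1 and 3.9, under the floor. Lgr5, the third receptor of the group and a stem cell marker, was under the floor on both of its probe sets, at 60.9 and 38.8 on the first and 68.8 and 25.2 on the other. The 4 R-spondin genes did not reach the floor on either array. The ubiquitin ligase Znrf3 read 575.5 and 525.4 (log2 ratio -0.13), and Rnf43 was 25.1, under the floor, in parental and 103.9 in metastatic cells.

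Axin2, a direct beta-catenin target and a feedback inhibitor, was not measured above the floor. Probe set 1436845_at read 82.4 in parental and 83.8 in metastatic cells, just under the floor, and 1421341_at read 7.7 and 1.7. When the floor was lowered to the 40th percentile, the first of these counted as measured, with nearly equal signals. Whether Axin2 differed below this level was not detectable on these arrays.

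A wider list of 127 WNT pathway genes in 9 roles, chosen with earlier results of these data known, gives the setting. It had 124 genes with a single-gene probe set, of which 82 were measured. Of the 82, 11 (13.4%) were higher in the metastatic cells by at least 2-fold and 7 (8.54%) were lower, beside 6.22% and 4.48% of all measured genes. Without the members, the 75 measured genes held 7 higher (9.33%) and 6 lower (8.0%). The list median was 0.02 and that of all measured genes -0.01. With hybridisation control scaling the counts over the list were 5 higher and 19 lower, beside 2.21% and 20.1% of all genes, and the list median was -0.55 against -0.54.

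**Figure D3:**
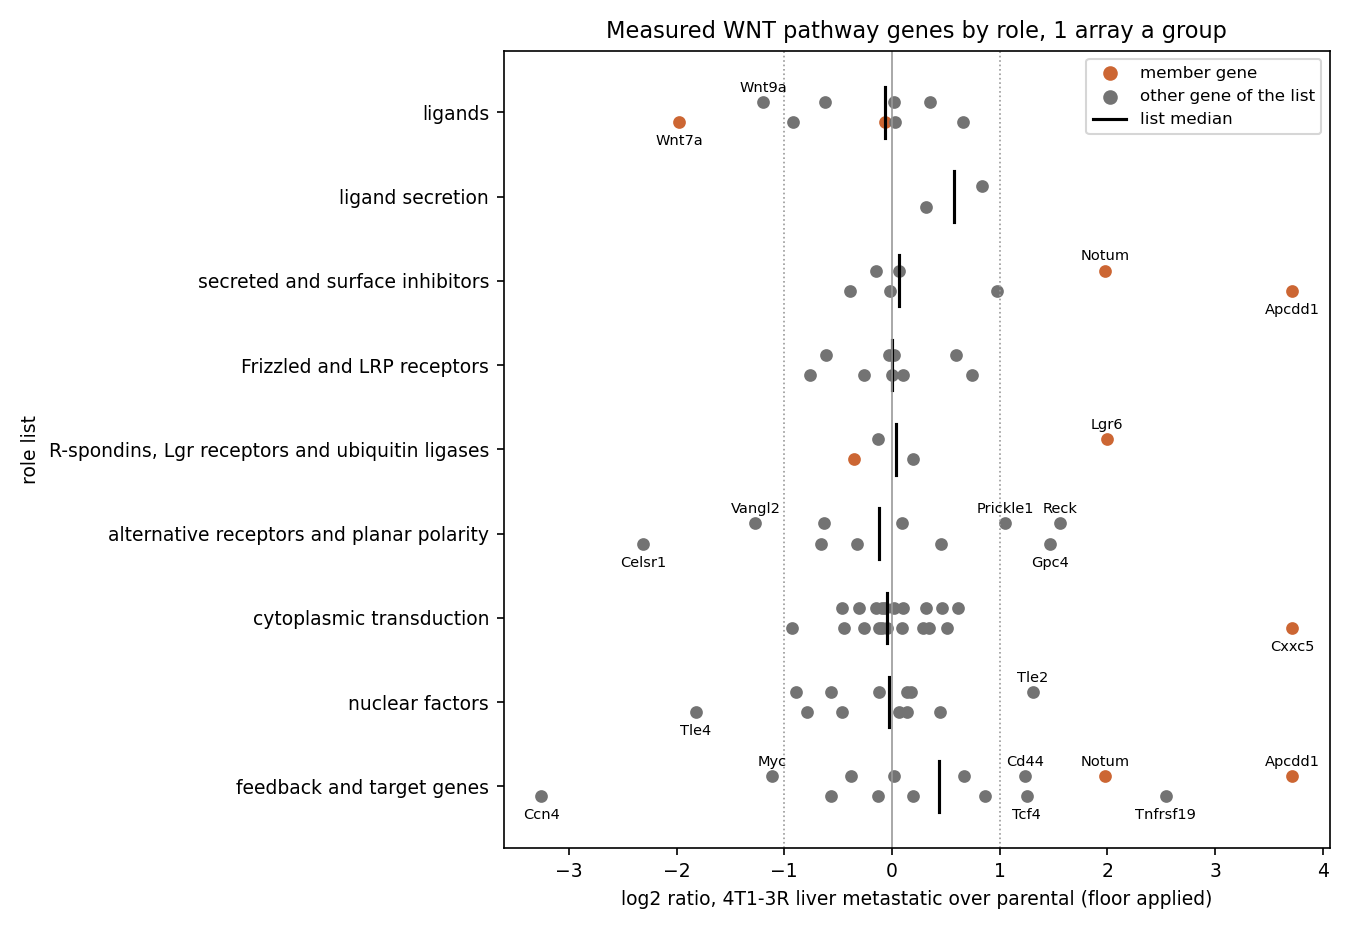
Log2 ratio of metastatic over parental signal (horizontal axis, floor applied) for each of the 82 measured WNT pathway genes, in 9 role lists, with members in orange, other genes in grey, a black bar at each list median and dotted lines at 2-fold; a gene on more than 1 list is drawn on each. Genes at least 2-fold apart are named; the Frizzled and LRP list and the ligand secretion list have none.

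Among 7 measured secreted and surface inhibitors, Apcdd1 and Notum were the 2 at least 2-fold higher, joined by Tpbg with quantile normalization or loess. Apcdd1 and Notum had been picked as members from this same contrast, and 6.22% of all measured genes were higher. Tpbg, a surface glycoprotein that restrains canonical WNT signalling, read 1175.5 and 2312.7 (log2 ratio 0.98, and 0.21 and 0.70 on its other probe sets). Sfrp4 (149.2 and 156.4), Kremen1 (404.8 and 365.8) and Trabd2b (119.6 and 91.1) were under 2-fold. The 4 Dkk genes and Wif1 lay under the floor on both arrays.

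The Frizzled and LRP receptors had 9 measured members, with 0 at least 2-fold apart in either direction. Among all measured genes 6.22% were higher and 4.48% lower, so 0 of 9 is not read as a result about these receptors. Fzd2 and Fzd3 were at least 2-fold lower with hybridisation control scaling, where 20.1% of all measured genes were. Fzd6 read 3436.5 in parental and 2878.9 in metastatic cells, Fzd7 read 725.0 and 780.9, and Fzd1 read 314.3 and 308.7. Fzd2 (936.8 and 552.8) and Fzd3 (478.0 and 312.7) had log2 ratios of -0.76 and -0.61, and Fzd5 (212.3 and 321.5) and the co-receptor Lrp5 (178.4 and 299.1) had 0.60 and 0.75. The other Fzd2 probe sets had -0.54 and 0.27, so 1 of 3 had the opposite sign.

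The list of alternative receptors and planar polarity genes had 10 measured members, of which 3 were higher and 2 lower by at least 2-fold. Over all measured genes the shares were 6.22% and 4.48%. With hybridisation control scaling 0 of the list were higher and 4 lower, Celsr2 and Ror1 besides the 2 below. That scaling put 2.21% of all measured genes higher and 20.1% lower. Celsr1, a cadherin of planar polarity in epithelia, read 448.3 in parental cells and 3.4 in metastatic cells, at least 4.95-fold lower on its only probe set. Vangl2, its membrane partner in planar polarity, read 301.7 and 125.3 (2.41-fold lower), with 190.0 and 69.2 (under the floor) on a second probe set, at least 2.10-fold lower, and a log2 ratio of 0.46 on the third. The higher genes were Reck (195.8 and 577.4, 2.95-fold), which presents WNT7 ligands to Frizzled in brain endothelium and inhibits metalloproteinases, the glypican Gpc4 (727.1 and 2014.0, 2.77-fold, and 2.12-fold on its second probe set) and the polarity gene Prickle1 (252.1 and 523.3, 2.08-fold). Markers of carcinoma epithelium were also lower, 5 of 11 by at least 2-fold as given above, and their part in the Celsr1 and Vangl2 values was not tested.

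Cytoplasmic transduction genes had 21 measured members, of which only Cxxc5 was at least 2-fold apart on the probe set used. Among all measured genes 6.22% were higher and 4.48% lower, and Cxxc5 had been picked as a member from this same contrast. With hybridisation control scaling Amer1, Apc and Csnk1e were at least 2-fold lower, where 20.1% of all measured genes were. Beta-catenin itself, Ctnnb1, read 19574.5 in parental and 26935.0 in metastatic cells (log2 ratio 0.46, and 0.15 and 0.20 on its other probe sets). The destruction complex gene Apc read 1184.1 and 858.3 (log2 ratio -0.46), with -1.02 and 0.02 on its other measured probe sets. Amer1, which binds APC at the membrane, read 719.5 and 379.1 (log2 ratio -0.92), and a second probe set had -1.24. The kinase gene Csnk1g1 read 1074.5 and 1648.6 (log2 ratio 0.62), and Apc2 was 66.6, under the floor, in parental and 129.1 in metastatic cells.

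Of 12 measured nuclear factors, 1 was higher and 1 lower by at least 2-fold, both of them Groucho co-repressors. Over all measured genes the shares were 6.22% and 4.48%. With hybridisation control scaling 0 of these factors were higher and 4 lower, Tle4, Cby1, Hmgxb4 and Tcf7l1. That scaling put 2.21% of all measured genes higher and 20.1% lower. Tle4 read 787.9 in parental and 222.6 in metastatic cells, 3.54-fold lower on its 1 measured probe set of 3. Tle2 was 81.9, under the floor, and 224.1, at least 2.47-fold higher. Cby1, an antagonist of beta-catenin, read 725.0 and 391.0 (log2 ratio -0.89), and Hmgxb4 read 1365.3 and 790.6 (log2 ratio -0.79). Lef1 was 133.8 in parental cells and 64.7, under the floor, in metastatic cells, at least 1.48-fold lower.

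The list of feedback and target genes had 14 measured members, 5 higher and 2 lower by at least 2-fold. Over all measured genes the shares were 6.22% and 4.48%. A further 8 of the list lay under the floor on both arrays, among them Axin2, Nkd2, Sp5, Lgr5, Dkk1 and Bambi. The higher genes were Apcdd1, Notum, Tnfrsf19, Tcf4 and Cd44, of which Tcf4 and Cd44 came under 2-fold with hybridisation control scaling. Of these, Apcdd1 and Notum had been picked as members from this same contrast. Tnfrsf19, a receptor of the TNF family, was 19.1 in parental and 526.8 in metastatic cells, at least 5.81-fold higher, but at least 1.38-fold on its second measured probe set. Tcf4, which encodes a helix-loop-helix factor and not the TCF/LEF factor once called by that name, read 2378.4 and 5667.0 (2.38-fold), with log2 ratios of 0.84 to 1.25 on 5 of its 6 probe sets and signals of 98.5 and 76.6 (under the floor) on the other. The adhesion receptor Cd44 read 6972.3 and 16399.4 (2.35-fold), with 0.63 and 0.91 on its other measured probe sets. The lower genes were the matricellular gene Ccn4, at 2064.0 and 216.0 (9.56-fold, and 7.25-fold on its second probe set), and Myc, at 3798.8 and 1760.4 (2.16-fold on its only probe set). Genes listed as targets thus lay on both sides, and the list is not made of genes that respond to WNT signals alone.

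**Figure D4:**
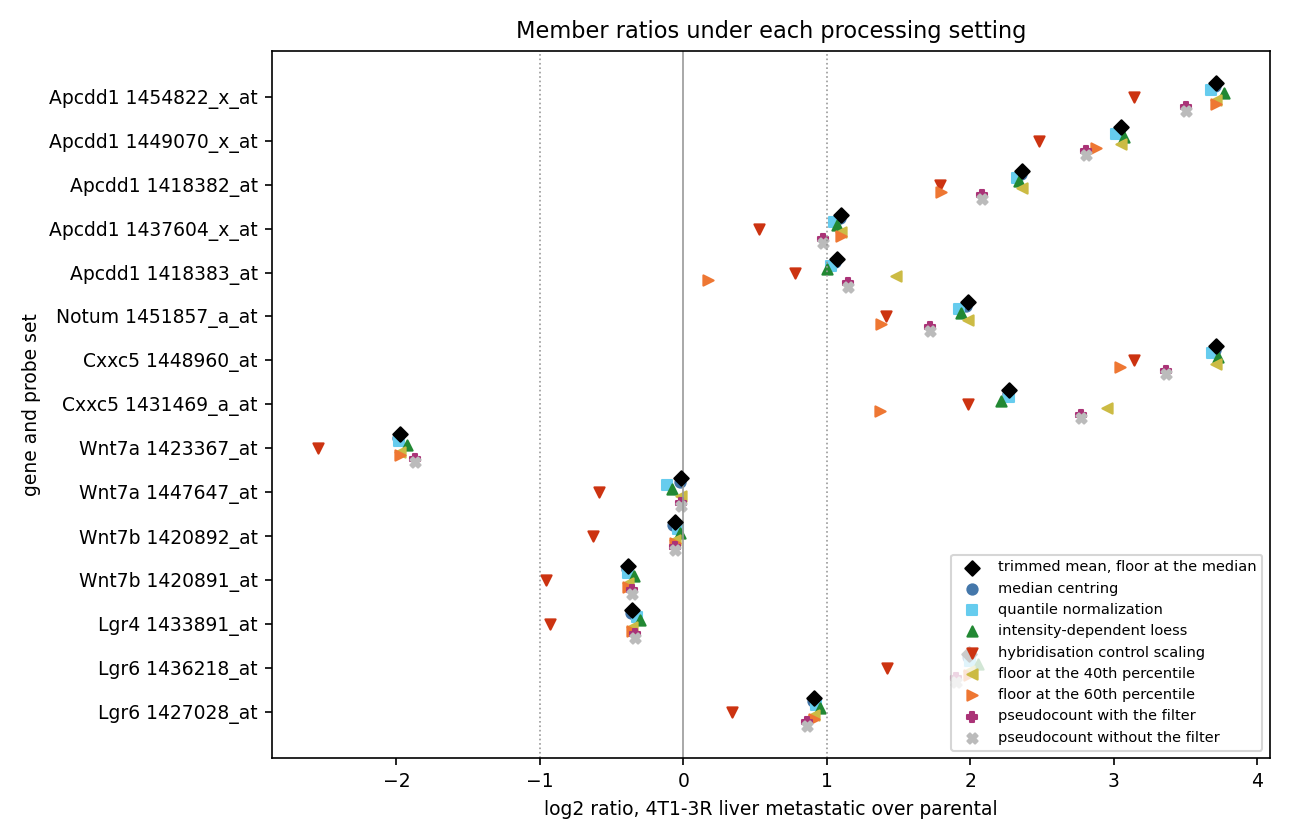
Log2 ratio of metastatic over parental signal (horizontal axis) for the 15 measured member probe sets under the main setting, with trimmed-mean scaling and a floor at the median (black diamonds), and 8 other settings; dotted lines mark 2-fold. Every probe set at least 2-fold apart in the main setting kept its sign in the settings drawn, and the 2 smallest Apcdd1 values come under 2-fold in some of them, that of 1418383_at as a lower bound.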

How the data were processed

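The authors deposited linear probe set intensities from MAS5, per the submitters' processing notes. The MAS5 version and any detection calls are not known here. Biotin-labelled cRNA was made from 6 ug of total RNA, per the labels' protocols. Both columns had the same mean, 500.003, after trimming 2% at each end, so the scaling applied here left them as deposited. Of 45101 probe sets, 64 are controls, 34945 have 1 gene symbol in the platform annotation, 932 have several and 9160 are unnamed here. All 9 members with a single-gene probe set had an entry in the RefSeq table of GRCm38.p6, which gave gene order. The build used for the probe annotation is unknown here.

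Signals under the floor (90.6) were set to it before log2, and a ratio against the floor is a lower bound. Calls mean at least 2-fold apart (log2 ratio of 1 in size). Where a gene had several probe sets, the one with the highest mean signal stood for it. With 1 array a group no test was run, so the number of arrays limits all precision. Members, lists, the naming rule (all members, then up to 4 genes of largest ratio in each role, called genes, the strongest ligands and Frizzled receptors, and Ctnnb1, Lef1, Lgr5 and Rnf43) and alternatives were chosen with earlier results of these data known. The procedure was tested on simulated data, with planted changes larger than 2-fold in genes above the floor on both arrays. Genes under the floor, changes near 2-fold and genes whose probe sets differ were not covered by it. Python 3.11.15 with pandas 2.3.3 and statsmodels 0.14.6 was used.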

Additional observations from a re-analysis of the deposited data

How the results depend on the processing

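With 1 array a group, no array could be left out, and no paired analysis was possible because each group has 1 sample. In all, 10 alternatives were run, and a log2 value within 0.5 of the main one was taken as the same. Of 119 log2 ratios of single member probe sets recomputed, 100 were the same and 19 moved, most of them with hybridisation control scaling. Among those called 0 changed sign, and of 80 for called probe sets 3 came under 2-fold, all in Apcdd1 1437604_x_at. A further 2, in Apcdd1 1418383_at, are lower bounds that dropped below 2-fold with the parental signal under the floor, which does not show a smaller difference. With the hybridisation controls as the scale, the pathway list held 5 higher and 19 lower genes and a median of -0.55, where the median of all genes also moved to -0.54. Without the filter on low signals the median over member probe sets was 0.15, since the 9 under the floor then entered. With plain _at probe sets 4 member probe sets were at least 2-fold higher and the median was 0.45. The measured probe sets left out, of Apcdd1, Notum and Cxxc5, were all at least 2-fold higher in the main setting. Counted by gene, 3 members were then at least 2-fold higher, since the only Notum probe set, 1451857_a_at, was among those left out. Taking the median over the probe sets of a gene, 0 member genes were at least 2-fold lower, since the 2 measured Wnt7a probe sets have a median of -0.996. Signals under the floor set the limit for Wnt5a, Axin2 and Lgr5.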

Other observations

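The genes next to the members in RefSeq order were read as a description, taking the 3 nearest measured genes on each side; 6.22% of all measured genes were higher by 2-fold or more and 4.48% lower, and how often neighbours of other genes share a direction was not tested. None of the 6 around Notum was at least 2-fold apart, with log2 ratios between -0.44 and 0.44, beside 1.98 for Notum. Around Apcdd1 1 of 6 was, the mechanosensitive channel gene Piezo2, at 72.1 (under the floor) in parental and 204.1 in metastatic cells. Around Cxxc5 2 of 6 were, the growth factor gene Nrg2 (118.4 and 312.2, log2 ratio 1.40) and the endothelial gene Ecscr (195.2 and 449.0, log2 ratio 1.20). All 6 genes around Wnt7a had negative ratios, from -0.18 to -2.20, the lowest being that of the nuclear pore gene Nup210 (765.2 and 166.7). Around Lgr6 1 of 6 was at least 2-fold apart, the aminopeptidase gene Rnpep, which was lower (1663.5 and 682.7, log2 ratio -1.28), opposite to Lgr6. Around Lgr4 the neurotrophin gene Bdnf was higher (200.6 and 561.6, log2 ratio 1.49), and around Wnt7b the matrix gene Fbln1 was 30.6 (under the floor) and 611.9. These neighbours were named after their values were seen.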
